A study of Mus musculus with 547 samples.

Results

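Single cells that the authors annotated as cholangiocytes, the epithelial cells of the bile ducts, were compared between mouse fetal livers of E15.5 and E14.5, in days of embryonic development. The members were all embryo cells of the EpCAM+ sort of those days whose putative type in the labels is cholangiocyte, 53 of the 529 single cells of the series. At E14.5 there were 17 such cells, 5 in set 1, 5 in set 2 and 7 in set 3, where a set is the first number after the sort letter in the cell's title. At E15.5 there were 36, with 18 in set 2, 8 in set 3 and 10 in set 4. The livers were neither treated nor cultured, per the labels, except that 1 E14.5 cell has conflicting labels on culture, as given below. The labels give no strain or genotype and do not explain the set numbers (litters, sorts or plates). Cells were sorted for the surface protein EpCAM (a gate named P2 in the labels), picked by hand and amplified by Smart-seq2, a full-length cDNA method without molecular identifiers. The reads of a set's cells were added up and sets were the replicates. The p-values rest on the variation among the sets of all embryo groups, which were fitted together, and may include technical variation. Beside these cells stand the 34 annotated cholangiocytes of E17.5 (15 in set 1, 4 in set 3 and 15 in set 4), the 26 EpCAM+ cells of E14.5 annotated as hepatoblast/hepatocyte, and the cells from the DLK+ sort, which takes a hepatoblast surface protein, of E14.5 (27 cells in sets 1, 2 and 3) and E15.5 (39 cells in sets 1, 3 and 4).

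Cholangiocytes and hepatocytes arise from a shared precursor, the hepatoblast. Notch and TGF-beta signals near the portal vein direct hepatoblasts into the ductal plate, where they take up biliary transcription factors such as SOX9 and gradually lose products of the hepatocyte programme such as albumin and alpha-fetoprotein. Sterol synthesis, which recurs below, runs from acetyl-CoA through isoprenoid units to lanosterol and cholesterol and is driven by SREBP2, a transcription factor released when membrane cholesterol is low.

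The cells had 851002 to 2111839 reads each, with a median of 1148450 at E14.5, and the summed sets had 5297201 to 20963998 reads. A cell had reads for a median of 8684 genes at E14.5 and 9059.5 at E15.5, and spike-in RNA took a median of 3.51% and 2.59% of its reads. Set 3 of E14.5, whose cells have no description in the labels, stood apart with 1404877 to 1864352 reads per cell but a median of only 8204 genes. A single cell of that set carries an explant culture protocol in its labels although its characteristics list no culture. The counts of called genes and of called sterol genes are given with and without it. Without it 11 of the 36 called genes lost their call, and values per set, scores per cell and shares of cells include it. Sets of a day also differed in Xist, the RNA made from the inactive X chromosome of females, which stood at 144, 148 and 25.4 normalised CPM in the E14.5 sets and at 78.5, 0 and 190 in the E15.5 sets. In the E17.5 sets Xist was at or below 0.201 normalised CPM, so the sex of the embryos and the day cannot be told apart in comparisons with E17.5.

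The share of EpCAM+ cells annotated as cholangiocytes was 17 of 43 at E14.5 (39.5%, exact 95% binomial interval 24.98 to 55.6%) and 36 of 38 at E15.5 (94.7%, 82.3 to 99.4%). By set it was 38.5, 45.5 and 36.8% at E14.5 and 94.7, 100 and 90.9% at E15.5, so the sets of both days did not overlap. The means were 40.3% ± 4.58 and 95.2% ± 4.56 (SD, n = 3 sets each), a difference of 55.0 percentage points (two-sided exact permutation test, p = 0.1, the smallest that 3 sets against 3 can give). How the authors assigned the putative type is not given in the sources used here, so genes used for it are not known.

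Markers of both lineages were present in the annotated cholangiocytes on both days, and none of them passed the test between the days. Sox9, a transcription factor of the biliary lineage, was at 371, 413 and 391 normalised CPM (counts scaled to a common library size by TMM) in the E14.5 sets and at 514, 755 and 531 in the E15.5 sets. Every E15.5 set was above every E14.5 set, yet the log2 fold change of 0.61 ± 0.95 (SE) had an adjusted p of 0.941 by edgeR's quasi-likelihood test with Benjamini-Hochberg adjustment. That SE comes from a spread fitted over all embryo groups, among them sets where Sox9 was low and uneven. In the E14.5 EpCAM+ cells annotated as hepatoblast/hepatocyte it was at 33.4 ± 35.2 (SD over sets). The missing call is therefore no evidence that Sox9 stayed level. Spp1, which encodes the secreted protein osteopontin, was uneven within each day, at 1267, 533 and 296 against 2109, 4305 and 300. The keratin gene Krt19 had reads in 6 of 17 cells at E14.5 and 19 of 36 at E15.5, and Krt7 in 12 of 17 and 28 of 36. Cldn4, another of the 8 cholangiocyte markers, went the other way, with reads in 8 of 17 cells and 8 of 36. Of the 8 markers, 6 had a positive log2 change and 2 a negative one. Among the E14.5 EpCAM+ cells annotated as hepatoblast/hepatocyte, Krt19 had reads in 1 of 26 cells and Krt7 in 10 of 26.

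Hepatoblast products stayed abundant in the same cells. Alb, which encodes serum albumin, was at 25758, 21346 and 30583 normalised CPM at E14.5 and at 30366, 17156 and 53356 at E15.5, and Afp, the gene of alpha-fetoprotein, at 44562, 50143 and 50147 and at 41868, 25579 and 56079. Both genes overlapped between the days. Dlk1 was at 947, 862 and 296 and then at 443, 276 and 453 (log2 fold change -0.84 ± 0.35, adjusted p = 0.427). Per cell, the mean log2(TPM + 1) of the 8 cholangiocyte markers ran from 2.06 over a median of 4.50 to 7.96 at E14.5 and from 2.29 over 5.66 to 8.60 at E15.5. For the 8 hepatoblast and hepatocyte markers it ran from 7.35 over 10.6 to 12.0 and from 5.43 over 10.2 to 12.1. The cells therefore spanned a wide range on each day. Across cells the scores were inversely related, with Pearson's r of -0.82 (Spearman's rho -0.84) over 17 cells and -0.79 (-0.84) over 36, as a description only, since the cells of a set share their source and both scores share a cell's depth.

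**Figure D1:**
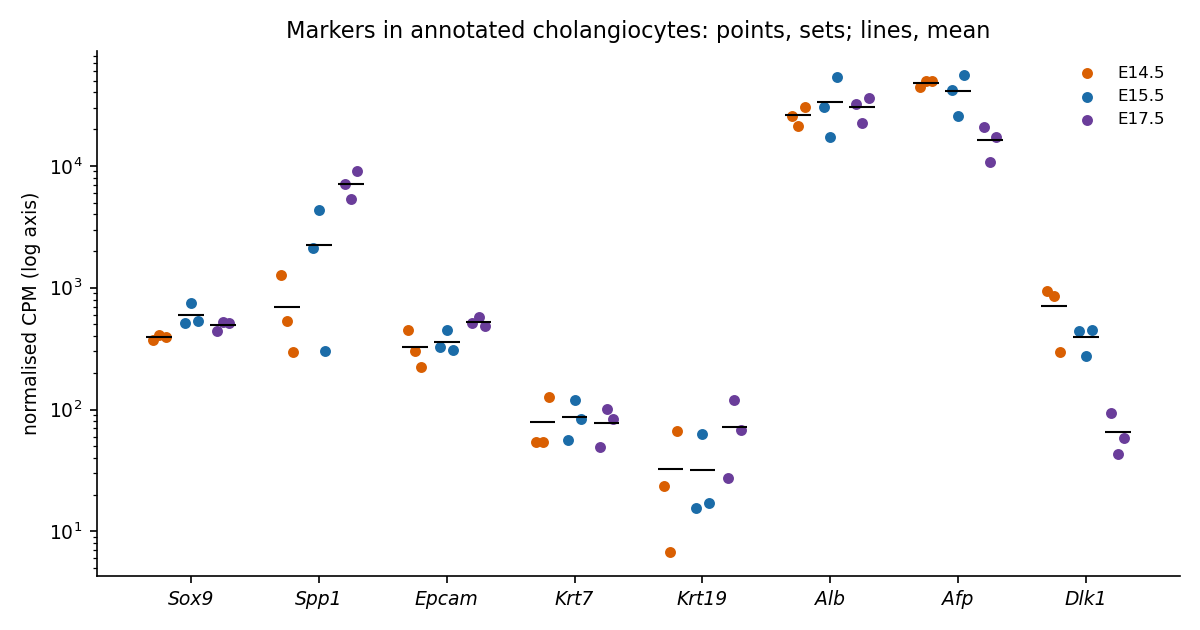
Normalised CPM on a log axis (vertical) of 8 lineage markers in annotated cholangiocytes, with 1 point per set at E14.5, E15.5 and E17.5 and a line at the mean of the 3 sets. Sox9 was higher in all 3 E15.5 sets (514 to 755) than in the E14.5 sets (371 to 413), Alb overlapped on all 3 days, and Dlk1 stood at 43.6 to 93.9 at E17.5.

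Markers of other liver cells were low on both days. Normalised CPM was summed over the tested genes of each list, which leaves out the lowest genes. At E14.5 and E15.5 it ran from 3.25 to 6.05 and 1.78 to 3.99 for 8 of 12 erythroid genes. For 9 of 14 leukocyte and macrophage genes it ran from 2.16 to 22.9 and 9.78 to 36.9. It was at most 0.667 for 4 of 7 megakaryocyte genes. The ranges were 0.327 to 1.25 and 0.397 to 2.76 for 5 of 11 endothelial genes. They were 22.03 to 47.1 and 5.43 to 17.1 for 10 of 13 mesenchymal and stellate genes, and 14.9 to 26.8 and 15.6 to 39.0 for 4 of 7 mesothelial genes. No member of these 6 lists passed the test. The defining genes Ptprc (leukocytes), Kdr (endothelium) and Col1a1 (mesenchyme) were too low to be tested and are not in these sums. Csf1r, the receptor of a macrophage growth factor, had reads in 5 of 17 and 16 of 36 cells. The part of these cells' RNA in the results was not tested.

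Between E14.5 and E15.5, 36 of 16838 genes tested in the annotated cholangiocytes passed an adjusted p of 0.05 in edgeR's quasi-likelihood test, which is 0.214% of genes. Higher at E15.5 were 11 (0.0653%) and lower 25 (0.148%). The 25 genes that fell include enzymes of sterol, lipid and serine metabolism, and of the 23 called genes with at least 10 normalised CPM in the higher day, 20 fell and 3 rose. At an unadjusted p below 0.05 there were 1755 genes. Without a test, every E15.5 set was above every E14.5 set for 6.57% of genes and below for 4.36%, and the sets of 30 of the 36 called genes did not overlap. DESeq2 on the same sums called 183 genes, 85 higher and 98 lower, all 36 among them, so its share of higher genes was 46.5% against 30.6%.

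The calls rest on the estimate of spread that all embryo groups share. With only the 6 sums compared in the fit, or only cholangiocyte sums, edgeR called 0 genes (658 and 1048 at an unadjusted p below 0.05), and limma on equally weighted cells also called 0 (1112). Leaving out E15.5 set 3 left 8 calls, all among the 36 (Ctu1, Tuba8, Msmo1, 2810007J24Rik, Ppp6r2, Per1, Pkd2l2 and Ppp1r3b). Of these 8 calls, 6 were higher and 2 lower, so the excess of falls was not kept. Leaving out E14.5 set 1 gave 60 (33 higher, 27 lower), and leaving out E14.5 set 2 gave 34 (22 higher, 12 lower). Falls stayed more frequent without E14.5 set 3 (16 higher, 24 lower), E15.5 set 2 (11 higher, 15 lower) or E15.5 set 4 (10 higher, 15 lower). Of the 36 genes, 28, 15 and 21 kept their call without E14.5 set 1, 2 or 3, 21 and 16 without E15.5 set 2 or 4, and 25 without the cell that carries a culture protocol. Msmo1, Ctu1, Tuba8 and 2810007J24Rik kept it in each of these repeats. The repeats reuse mostly the same cells, so a kept call is no independent support.

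**Figure D2:**
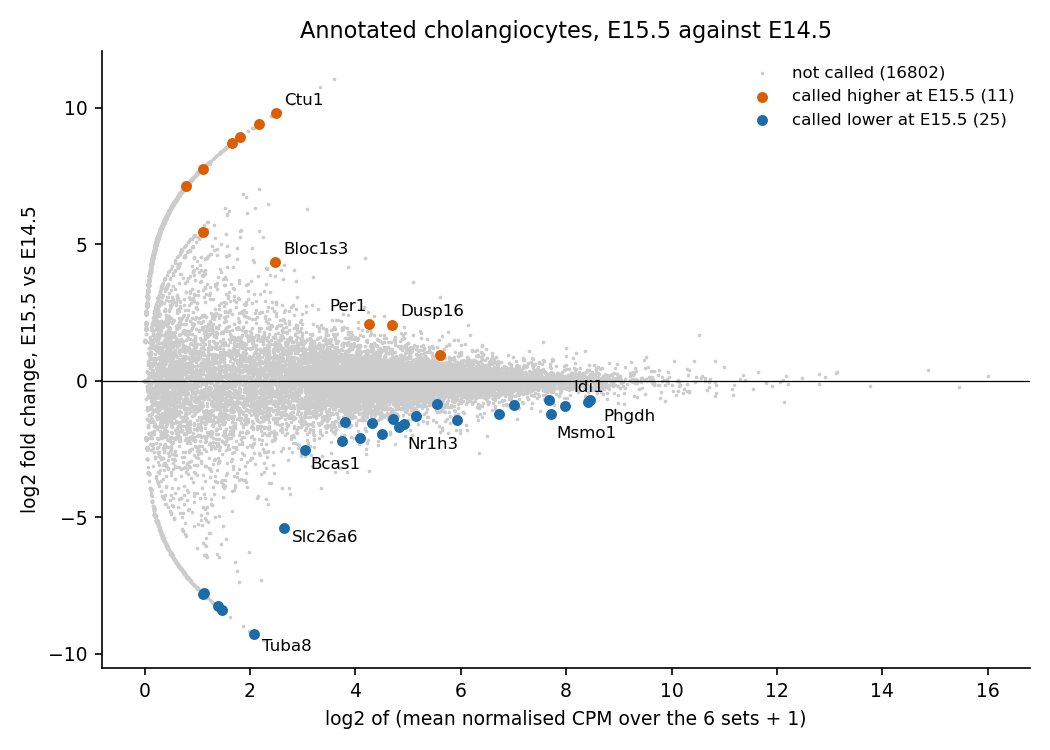
Log2 fold change from E14.5 to E15.5 (vertical) against log2 of the mean normalised CPM over the 6 sets plus 1 (horizontal) for all genes tested, with the 11 genes called higher and the 25 called lower in colour. Msmo1, Idi1 and Phgdh were called lower at high levels, while the largest fold changes, among them Ctu1 and Tuba8, belong to low genes with no read on a day.

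Enzymes of sterol synthesis were lower at E15.5. Of 25 sterol and fatty acid synthesis genes, 4 passed the test, all lower (Msmo1, Idi1, Fdps and Cyp51), against 0.148% of all genes. A negative log2 change was seen for 24 of the 25, and all 3 E15.5 sets were below all E14.5 sets for 9, against 4.36% of all genes. The list's median log2 change was -0.52, beside 0 over all genes tested and 0.11 for the same list in DLK+ cells. In the order of the pathway, Idi1 makes the activated isoprene unit, Fdps joins such units to farnesyl diphosphate, and Cyp51 and Msmo1 remove methyl groups from lanosterol and its products. Without the cell that carries a culture protocol 1 member passed (Msmo1), as it did without E14.5 set 2, E15.5 set 2 or E15.5 set 3, and 0 passed in the fits on the 6 sums or on cholangiocyte sums alone.

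Promoter sequence is shown for the called sterol genes because they moved together and because SREBP2 acts on such promoters together with the CCAAT-binding factor NF-Y. The 250 bases before the RefSeq start on GRCm38.p6 were at hand for 3 of the 4 (Msmo1 at chr8:64733579-64733828, minus strand; Idi1 at chr13:8885356-8885605, plus strand; Cyp51 at chr5:4104698-4104947, minus strand). They are written 5′ to 3′ with matches of CCAAT or its other strand ATTGG in capitals.
Msmo1: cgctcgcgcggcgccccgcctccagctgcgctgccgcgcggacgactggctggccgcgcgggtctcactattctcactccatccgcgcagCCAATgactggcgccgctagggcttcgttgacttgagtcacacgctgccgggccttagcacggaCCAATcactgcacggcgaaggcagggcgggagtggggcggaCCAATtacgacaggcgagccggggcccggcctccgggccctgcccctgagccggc
Idi1: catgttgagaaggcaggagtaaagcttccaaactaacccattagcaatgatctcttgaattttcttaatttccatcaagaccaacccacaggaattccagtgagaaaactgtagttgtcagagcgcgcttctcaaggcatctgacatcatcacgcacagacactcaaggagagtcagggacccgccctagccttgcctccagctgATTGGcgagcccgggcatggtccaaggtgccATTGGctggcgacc
Cyp51: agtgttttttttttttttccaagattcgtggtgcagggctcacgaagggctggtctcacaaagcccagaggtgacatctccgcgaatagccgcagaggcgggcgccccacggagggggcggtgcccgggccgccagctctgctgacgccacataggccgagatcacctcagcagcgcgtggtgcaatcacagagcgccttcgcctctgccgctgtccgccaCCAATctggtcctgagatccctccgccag
Msmo1 had 3 such matches, Idi1 had 2 and Cyp51 had 1. At least 1 match was in 14 of the 17 list members with a sequence (82.4%) and in 37.5% of 27025 genes with one. The sterol regulatory element letters TCACNCCAC, searched on both strands, matched in 0 of these 3 windows, in 1 of the 17 list members and in 1.22% of all genes. The windows end at the RefSeq start. The GENCODE M21 bounds of all 3 genes reach further upstream, so part of each window lies within the gene by that source. Matches are a description of the letters in these windows and show no binding.

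Msmo1 (ENSMUSG00000031604, chr8:64718139-64733792 on GRCm38), a methylsterol monooxygenase, was at 311, 351 and 210 normalised CPM in the E14.5 sets and at 132, 128 and 118 in the E15.5 sets. The E15.5 sets lay close together and well below the lowest E14.5 set. The means were 290.7 ± 72.5 and 126 ± 6.99 (SD, n = 3 sets), a log2 fold change of -1.20 ± 0.19 (edgeR adjusted p = 0.00386). Reads were found in 17 of 17 and 36 of 36 cells, and the median TPM per cell was 155 at E14.5 and 73.7 at E15.5, with ranges of 0.699 to 529 and 0.58 to 452. So the levels of single cells overlapped across nearly the whole range. At E17.5 the sets stood at 89.3, 58.0 and 98.7.

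Idi1 (ENSMUSG00000058258, chr13:8885501-8892451), the isopentenyl diphosphate isomerase, showed 305, 417 and 269 normalised CPM at E14.5 and 169, 148 and 203 at E15.5 (log2 fold change -0.93 ± 0.17, edgeR adjusted p = 0.0135). It fell again to 99.1, 90.0 and 118 at E17.5 (-0.76 against E15.5, adjusted p = 0.0325), so its 9 sets were ordered by day without overlap. Fdps (ENSMUSG00000059743, chr3:89093588-89101959), the farnesyl diphosphate synthase, had 137, 209 and 152 and then 84.4, 73.2 and 115 (-0.87 ± 0.19, adjusted p = 0.0392). Cyp51 (ENSMUSG00000001467, chr5:4081145-4104746), the lanosterol demethylase, had 277, 248 and 235 and then 150, 139 and 174 (-0.72 ± 0.16, adjusted p = 0.0473). In all 3 the days' sets were separate. Of the exon bases of these genes, 26.7% in Fdps, 9.22% in Idi1 and 3.76% in Cyp51 lie also in an overlapping gene (Gm43738, Gm48574 and Akap9). Gm43738 lies on the same strand as Fdps, the others on the opposite strand, and whether counting used strand is not known.

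The other 21 members did not pass. Fasn, the fatty acid synthase, came nearest, at 141, 109 and 57.9 normalised CPM at E14.5 and 28.6, 33.5 and 37.1 at E15.5 (log2 fold change -1.64 ± 0.39, edgeR adjusted p = 0.0705), with separate sets. Mvk, Sc5d, Fdft1 and Dhcr7, all enzymes of the same pathway, also had every E15.5 set below every E14.5 set, with log2 changes of -0.84, -0.96, -0.53 and -0.60 and adjusted p of 0.141 or more. The sets of the regulator Srebf2 overlapped, at 82.2, 49.5 and 55.1 against 50.4, 47.4 and 79.9. Per cell, the list's mean log2(TPM + 1) ran from 3.66 over a median of 5.29 to 6.38 at E14.5 and from 3.23 over 4.77 to 6.18 at E15.5.

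The called sterol genes had higher mean levels in hepatoblasts than in cholangiocytes. Msmo1 averaged 1073 normalised CPM in the E14.5 EpCAM+ cells annotated as hepatoblast/hepatocyte, and 978 ± 26.2 and 994 ± 79.9 in the DLK+ cells of E14.5 and E15.5 (SD, n = 3 sets). The sterol score per cell had a median of 7.01 in DLK+ cells on each day, above the highest annotated cholangiocyte of either day. Within the annotated cholangiocytes it was lower in cells with more cholangiocyte marker expression, with r of -0.27 (rho -0.26) over 17 cells at E14.5 and -0.58 (-0.56) over 36 at E15.5, as a description. Beside this, the summed hepatoblast and hepatocyte markers were at 82709 to 99152 normalised CPM at E14.5 and at 48344 to 126007 at E15.5. The sets overlapped, and 0 of 8 members were called. Alb and Afp made up most of this sum, at 25758 and 44562 of 82709 in E14.5 set 1. The sum therefore says little about the other members. Of the 8 members, 5 had a negative log2 change and 3 a positive one. From E14.5 to E15.5 the median TPM per cell went from 8568 to 4488 for Apoa1 and from 129 to 89.2 for Fabp1. It went from 289 to 168 for Dlk1 and from 18.0 to 26.5 for Hnf4a. The median cholangiocyte marker score was 4.50 and 5.66. The part that the hepatoblast content of the cells plays in the sterol result was not tested.

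**Figure D3:**
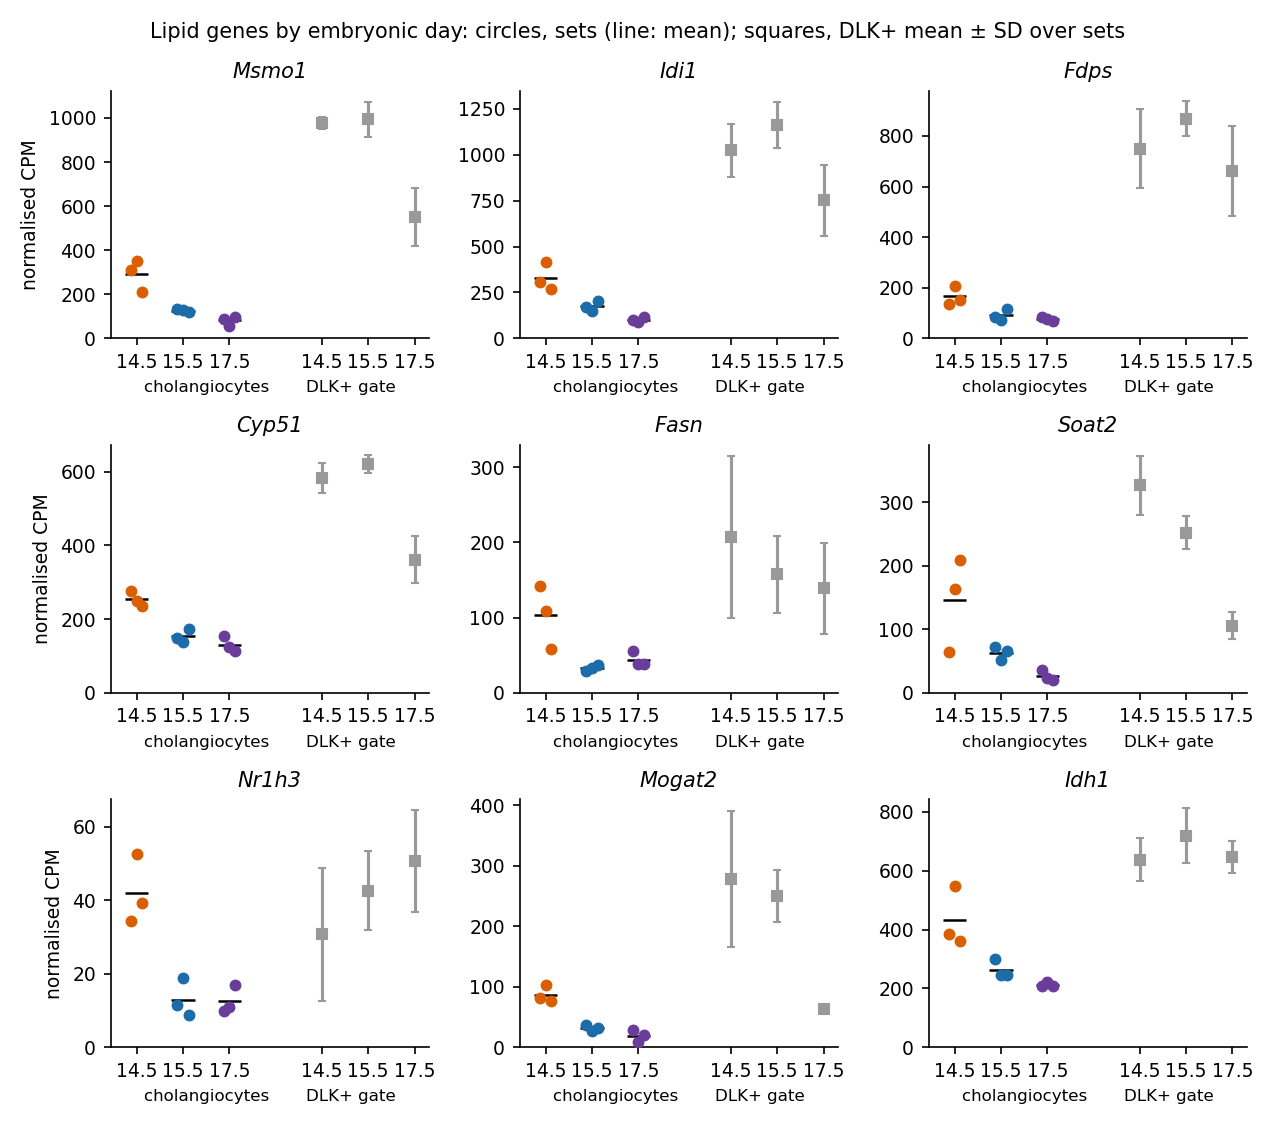
Normalised CPM (vertical, from 0) of 9 lipid genes, with circles for the sets of annotated cholangiocytes at E14.5, E15.5 and E17.5, lines at their means, and squares for DLK+ cells (mean ± SD over sets). In cholangiocytes Msmo1 went from 210 to 351 at E14.5 down to 118 to 132 at E15.5, while its DLK+ means were 978 and 994.

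Among the other called genes, 4 with a known part in lipid metabolism were picked after their values were seen and belong to no list. Nr1h3 (ENSMUSG00000002108), which encodes the oxysterol receptor LXR-alpha, was at 34.5, 52.5 and 39.2 normalised CPM at E14.5 and at 11.4, 18.7 and 8.86 at E15.5 (log2 fold change -1.70 ± 0.37, edgeR adjusted p = 0.0416), a call kept in 3 of 15 alternatives. Mogat2 (ENSMUSG00000052396), a monoacylglycerol acyltransferase of triglyceride synthesis, was at 82.2, 103 and 76.8 and then at 37.2, 27.3 and 31.2 (-1.45 ± 0.28, adjusted p = 0.0148). The sets of both genes were separate. Soat2 (ENSMUSG00000023045), which makes cholesterol esters, passed although its sets overlapped, at 64.9, 163 and 210 against 72.3, 52.0 and 66.3 (-1.20 ± 0.26, adjusted p = 0.0371), and fell again by E17.5 (log2 fold change -1.24, adjusted p = 0.0176). Naaa, an acid amidase of fatty acid ethanolamides, fell by 2.196 on the log2 scale.

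Phgdh (ENSMUSG00000053398), the first enzyme of serine synthesis, was at 349, 448 and 488 normalised CPM at E14.5 and at 279, 250 and 218 at E15.5 (log2 fold change -0.78 ± 0.14, edgeR adjusted p = 0.00916). It fell further to 140, 152 and 161 at E17.5 (adjusted p = 0.00782), and its 9 sets were ordered by day. In DLK+ cells it went from 868 ± 55.2 to 586 ± 60.1 (SD, n = 3 sets). Idh1 (ENSMUSG00000025950), the cytosolic isocitrate dehydrogenase that supplies NADPH, was at 386, 548 and 362 and then at 300, 246 and 247 (-0.71 ± 0.14, adjusted p = 0.0202). Shbg, which encodes the sex hormone-binding globulin, fell by 1.94 on the log2 scale and by a further 2.34 to E17.5 (adjusted p = 0.00782).

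Further genes that fell with at least 10 normalised CPM at E14.5 and separate sets were Bcas1 (log2 fold change -2.54 ± 0.50), the ribosome biogenesis gene Tcof1 (-1.58), the amino acid transporter gene Slc43a1 (-1.55), the chondroitin sulfotransferase gene Chst13 (-1.53), Ube2l6 of the ubiquitin-like conjugation system (-1.42), the glutathione transferase gene Gstm4 (-1.30) and Chid1 (-0.87). All of these but Tcof1 had a higher mean in the E14.5 EpCAM+ cells annotated as hepatoblast/hepatocyte than in E14.5 cholangiocytes. Chst13, for example, was at 91.2 against 19.3 normalised CPM, and Tcof1 at 21.7 against 44.0. Of the falling genes above, Nr1h3, Mogat2, Soat2, Phgdh, Idh1 and Shbg were also higher there, and Naaa was lower. The part of hepatoblast content in these falls was not tested. Gstm4 has close paralogs, among which reads may have been split. Slc26a6, an anion exchanger gene, was at 15.7, 0 and 15.3 against 0.546, 0 and 0, and so rested on 2 sets with reads in 6 of 17 cells.

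A group of 5 genes had no read in any of the 36 cells at E15.5, which allows a share of up to 8.33% of cells with a read if cells are taken as independent, and sets no limit on cells that express the gene at a low level. The mean E14.5 level was 27.4-fold a floor of 3 reads per set at E15.5 for the alpha-tubulin gene Tuba8. For the betaine transporter gene Slc6a12 the ratio was 15.1, for the channel gene Mcoln2 13.9, for the inositol oxygenase gene Miox 10.0 and for Rarres1 9.67. These ratios take reads as independent, while the reads of each gene came from few cells. They are therefore no lower bounds on the change. Tuba8 was at 5.07, 4.48 and 9.85 normalised CPM at E14.5 with reads in 4 of 17 cells. The other 4 had reads in 2 or 3 of the 17 cells and none in at least 1 E14.5 set. All 5 were present in the DLK+ cells of E15.5, Tuba8 at 18.0 ± 10.1 and Mcoln2 at 54.5 ± 13.2 normalised CPM (SD, n = 3 sets).

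Of the genes that rose, 6 had no read in the 17 cells of E14.5, which in the same sense allows up to 17.6% of cells with a read. Ctu1, a tRNA thiolation enzyme, was at 11.8, 8.23 and 7.90 normalised CPM in the E15.5 sets, with reads in 16 of 36 cells. Its mean was 23.2-fold the floor of 3 reads per set at E14.5, again a ratio and no lower bound. It was at 14.1, 8.76 and 5.96 in the E17.5 sets, and already at 9.34 in the only tested sum of E13.5 annotated cholangiocytes (9 cells). The ratios to this floor were 17.6 for the glycogen phosphatase subunit gene Ppp1r3b, 12.4 for Fam109b and 10.8 for the phosphatase subunit gene Ppp6r2. They were 5.70 for 2810007J24Rik and 3.62 for the polycystin-family gene Pkd2l2. All 6 had reads in that E13.5 sum (1.94 to 9.34 normalised CPM, Fam109b at 9.25 and Ppp6r2 at 3.98) and in the E14.5 EpCAM+ cells annotated as hepatoblast/hepatocyte, where Ctu1 was at 11.7 ± 2.96 and 2810007J24Rik at 25.5 ± 5.14 (SD, n = 3 sets). In 2810007J24Rik the reads came from 3 of 36 cells, a share below the 17.6% allowed at E14.5. A rise in its share of cells was therefore not shown. In Ppp1r3b set 4 held 17.8 of the CPM against 3.19 and 0.198 in the others. Bloc1s3, for a subunit of a complex that builds lysosome-related organelles, went from 11 reads in 7 cells (0.327, 0.309 and 0.584 normalised CPM) to 7.51, 12.7 and 5.999 with reads in 26 of 36 cells. Stab1, a scavenger receptor gene, had 1 read at E14.5 and 99 at E15.5 in 9 cells, and fell again by E17.5 (log2 fold change -4.82, edgeR adjusted p = 0.00592).

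Only 3 of the genes that rose reached 10 normalised CPM. Per1 (ENSMUSG00000020893), a circadian clock gene, was at 9.80, 4.79 and 6.26 at E14.5 and at 24.6, 19.4 and 44.5 at E15.5 (log2 fold change 2.09 ± 0.40, edgeR adjusted p = 0.0148). It rose by as much in DLK+ cells (2.28 ± 0.41, adjusted p = 0.0297), from 6.59 ± 3.05 to 31.6 ± 11.49 normalised CPM (SD, n = 3 sets), where it was 1 of only 2 genes called (0.0119% of genes), the other being Rcn3, lower at E15.5. The hour of collection is not in the labels. Dusp16 (ENSMUSG00000030203), a phosphatase of MAP kinases, was at 10.8, 14.2 and 4.59 and then at 37.3, 57.0 and 26.6 (2.04 ± 0.40, adjusted p = 0.0175), and Papd4 (ENSMUSG00000042167), a cytoplasmic poly(A) polymerase, at 25.98, 40.3 and 32.3 and then at 61.5, 72.2 and 55.5 (0.94 ± 0.18, adjusted p = 0.0163). Sets of all 3 genes were separate, and reads of Per1 and Dusp16 were found in 7 of 17 cells each at E14.5 and in 25 and 24 of 36 at E15.5.

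Mitosis genes had lower levels at E15.5 without a call. All 22 had a negative log2 change, with a median of -1.40 beside -0.32 in DLK+ cells, 9 had every E15.5 set below every E14.5 set (4.36% of all genes), and 6 were below an unadjusted p of 0.05, but 0 passed the adjusted test in edgeR, DESeq2 or limma. Ccnb1, the mitotic cyclin, was at 234, 49.9 and 131 normalised CPM at E14.5 and at 31.0, 4.76 and 29.7 at E15.5 (-2.66 ± 1.01, edgeR adjusted p = 0.387). E15.5 set 3 was the lowest: Mki67, a proliferation marker, was at 41.2, 0.297 and 59.3 in the E15.5 sets. Without that set the median was -0.96. All 21 DNA replication genes also had a negative log2 change (median -0.39, DLK+ 0.13), with 0 called, and Mcm6 of the replicative helicase had overlapping sets at 194, 348 and 353 against 242, 327 and 281.

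Single cells fell into a low and a high group by their mean log2(TPM + 1) over the mitosis genes, with no cell between 3.27 and 5.93. Above 5, a value chosen after the gap was seen, were 5 of 17 cells at E14.5 (29.4%, exact 95% binomial interval 10.3 to 56.0%) and 6 of 36 at E15.5 (16.7%, 6.37 to 32.8%). By set they were 2 of 5, 1 of 5 and 2 of 7 at E14.5 and 5 of 18, 0 of 8 and 1 of 10 at E15.5. The intervals cover counting error only and take cells as independent, and the shares of the sets, which are the replicates, overlapped between the days. The remaining cells had low scores on both days, and the medians over all cells were 2.64 and 1.26.

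**Figure D4:**
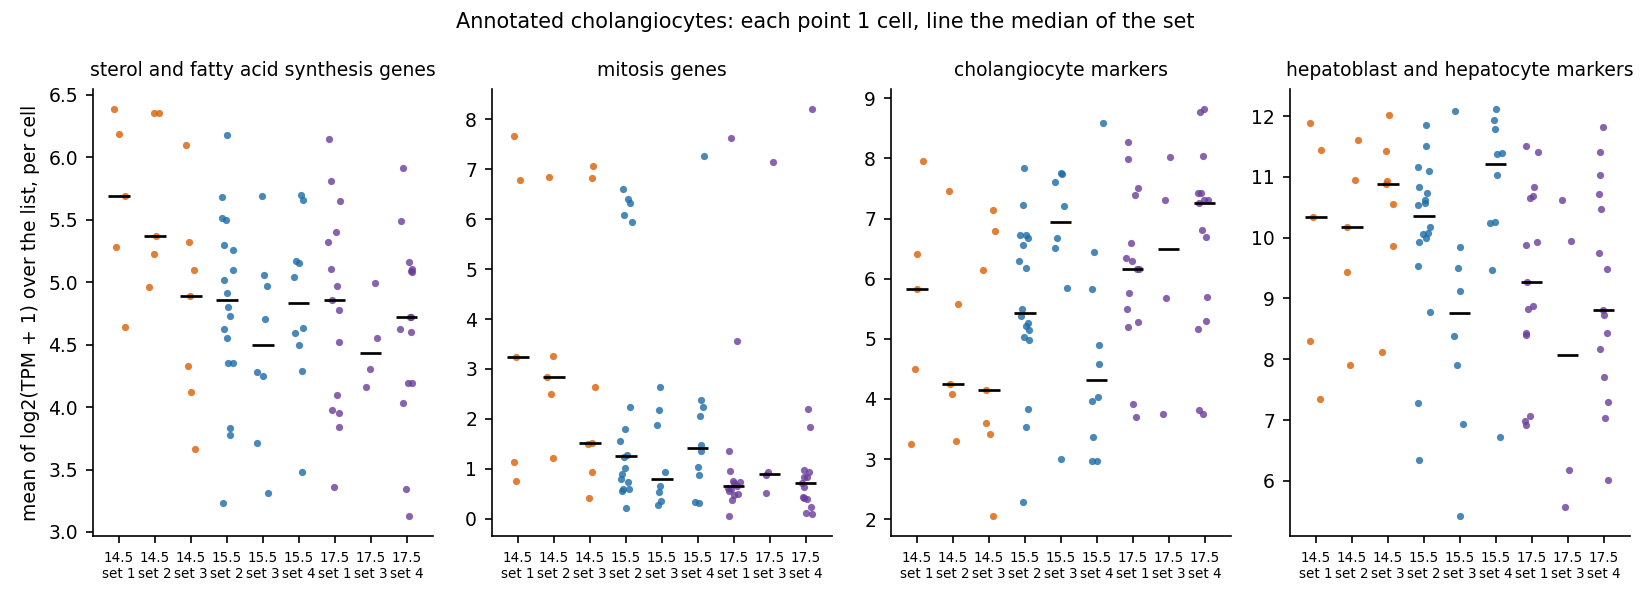
Mean of log2(TPM + 1) per cell (vertical) over sterol and fatty acid synthesis genes, mitosis genes, cholangiocyte markers and hepatoblast and hepatocyte markers, with 1 point per annotated cholangiocyte, columns by day and set, and a line at each set's median. Mitosis scores split into a low and a high group on each day, with 0 of 8 cells of E15.5 set 3 above 5, and the sterol score had medians of 5.29 at E14.5 and 4.77 at E15.5 with wide overlap.

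No member of any other list passed the test. Of 20 biliary transcription factor genes 14 had a positive change (median log2 0.46), and 4 of them, Foxa1, Klf6 and Sox9 included, had every E15.5 set above every E14.5 set (6.57% of all genes). Klf6, a zinc finger factor, was at 21.1, 35.2 and 23.6 normalised CPM and then at 44.9, 89.1 and 48.3 (1.19 ± 0.52, edgeR adjusted p = 0.441). The 18 YAP targets and partners had a median of 0.61, with Lats2, a kinase of the Hippo pathway, at 19.8, 14.4 and 7.34 against 30.5, 32.8 and 33.2 (1.22 ± 0.86, adjusted p = 0.657). Medians were 0.38 for 22 basement membrane and integrin genes, 0.35 for 19 annexin, S100 and thymosin genes and 0.29 for 20 glycolysis and glucose uptake genes. They were -0.0031 for 17 Notch pathway genes, -0.12 for 20 ERK feedback and target genes and -0.05 for 20 TGF-beta and BMP genes, of which Id1, Id3, Ltbp1, Smad6 and Skil had every E15.5 set below every E14.5 set (4.36% of all genes).

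Genes near the threshold in these lists include the glucose transporter gene Slc2a2, at 105, 53.3 and 142 normalised CPM at E14.5 and at 187, 240 and 214 at E15.5 (log2 fold change 1.09 ± 0.27, edgeR adjusted p = 0.0959). Fgfr3, a fibroblast growth factor receptor gene, was at 55.4, 36.3 and 50.6 and then at 103, 118 and 136 (1.32 ± 0.35, adjusted p = 0.128), and its E17.5 sets were at 162, 304 and 268. The sets of both genes were separate. Plasma protein genes had a median of -0.13 in cholangiocytes beside 0.44 in DLK+ cells, and hepatocyte metabolism genes 0 beside 0.71, with 0 called in either population.

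**Figure D5:**
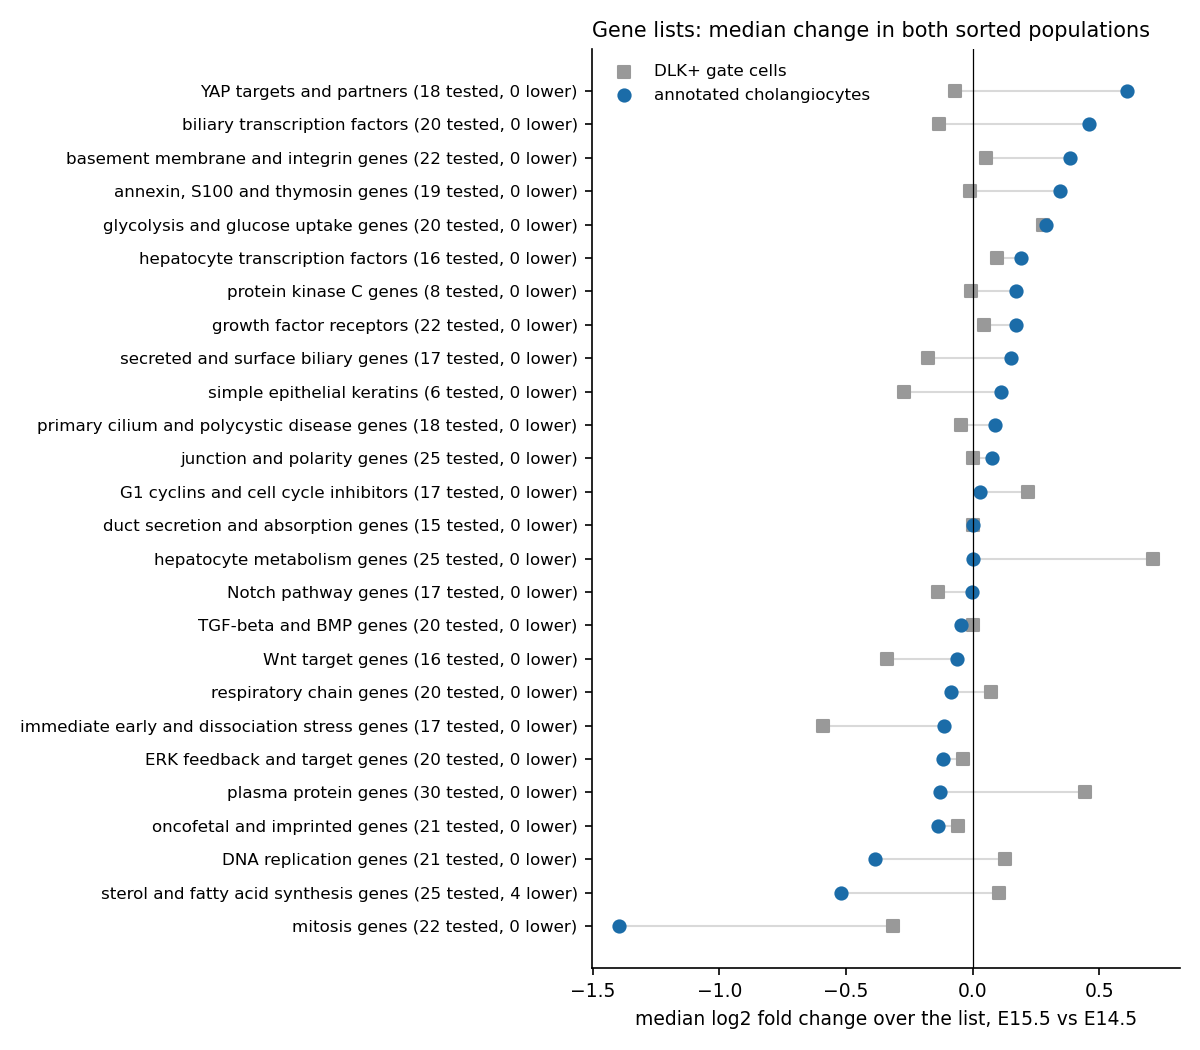
Median log2 fold change from E14.5 to E15.5 (horizontal) of each gene list (rows), with circles for annotated cholangiocytes, squares for DLK+ cells, and the number of genes tested and called lower beside each name. Mitosis genes had the lowest cholangiocyte median (-1.40) with 0 called, and the sterol and fatty acid list (-0.52) is the only one shown with called members (4).

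Whether a change differed from that in DLK+ cells of the same days was tested as the difference of both changes, which passed for 4 of 16838 genes (0.0238%). They were Ctu1, 2810007J24Rik and Impdh1, with a larger change in cholangiocytes, and Tuba8, with a lower one. Impdh1, an enzyme of guanine nucleotide synthesis, was at 18.95, 18.9 and 22.7 normalised CPM in cholangiocytes at E14.5 and at 39.5, 41.8 and 54.8 at E15.5, while DLK+ cells went from 20.8 ± 5.34 to 9.76 ± 1.64 (SD, n = 3 sets). None of the 25 sterol and fatty acid genes passed this test (Msmo1 and Idi1, edgeR adjusted p = 0.102 each), so their change was not shown to differ from that in DLK+ cells. The count was 9, 9 and 10 without E14.5 cholangiocyte sets 1, 2 and 3, and 2 without DLK+ set 2 of E14.5, DLK+ set 1 of E15.5 or DLK+ set 4 of E15.5.

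From E15.5 to E17.5, 75 of 16838 genes passed in the annotated cholangiocytes (0.445%), 18 higher and 57 lower. This comparison shares the E15.5 sets with the one above, and its values are given side by side only. Of the 8 genes that passed both, Phgdh, Idi1, Shbg and Soat2 fell in both steps. The other 4 turned back: Tuba8 and Slc6a12 fell and then rose, to means of 0.535 and 1.14 normalised CPM at E17.5, while 2810007J24Rik and Stab1 rose and then fell, 2810007J24Rik to no read and Stab1 to a mean of 0.0533. Dlk1 went to 93.9, 43.6 and 58.5 normalised CPM at E17.5 (log2 fold change -2.57, edgeR adjusted p = 0.00029), and Afp fell by 1.34 (adjusted p = 0.00148). Serpina6, the corticosteroid-binding globulin, fell by 2.32 (adjusted p = 2.13e-06) after overlapping at E14.5 and E15.5 (10912 to 19133 and 11972 to 13634 normalised CPM). The median of the sterol and fatty acid list was -0.13 and that of the mitosis genes 0.27. With only cholangiocyte sums in the fit, 1 gene passed (760 at an unadjusted p below 0.05).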

How the data were processed

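The authors deposited a read count for each of 40824 genes and 92 spike-in RNAs per cell, not normalized, with TopHat2 2.1.0, Bowtie2, HTSeq 0.6.0 and GRCm38/mm10 named in the submitters' processing notes. Their strand setting is not given in the sources used here. TPM per cell was recomputed from these counts and the deposited gene length. Reads were summed per set of a stage, sort and annotated type; of 46 embryo sums, the 42 with at least 2 cells were fitted together in edgeR 4.0.16 (R 4.3.3) with that group as the term, TMM factors, filterByExpr at a minimum count of 10 and the quasi-likelihood test. Benjamini-Hochberg adjusted p below 0.05 was called. SE was derived from the log2 change and its F statistic. DESeq2 1.42.0, limma 3.58.1, other scalings, filters and sets of cells were alternatives. The members and lists were chosen with earlier results of these data known. Named genes are the 10 largest separate rises and falls with at least 10 CPM (with fewer than 5 in a direction, the 5 of smallest p), up to 4 called members or 2 abundant ones per list, and 10 markers; other genes were chosen after their values were seen. Some genes of these lists are not reported here. Positions are from GENCODE M21. Counting intervals and floors cover counting error only. The pipeline was also run on simulated counts. These were drawn with the spread fitted over all embryo groups, so that run cannot test whether this shared spread holds for cholangiocytes.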

Additional observations from a re-analysis of the deposited data

Results flagged for a closer look

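The change from E14.5 to E15.5 differed between annotated cholangiocytes and DLK+ cells, by edgeR's test of the difference itself, for 4 genes. The log2 change in cholangiocytes minus that in DLK+ cells was 10.01 for Ctu1 (adjusted p = 5.42e-06), -9.68 for Tuba8 (adjusted p = 0.000157), 2.25 for Impdh1 (adjusted p = 0.0164) and 7.91 for 2810007J24Rik (adjusted p = 0.0347). The sizes for Ctu1, Tuba8 and 2810007J24Rik depend on the prior count, since a day of the cholangiocytes had no read. On the other day reads came from 16 of 36 cells for Ctu1, 4 of 17 for Tuba8 and 3 of 36 for 2810007J24Rik. In DLK+ cells Ctu1 went from 9.87 ± 3.74 to 8.63 ± 4.60 normalised CPM, Tuba8 from 13.7 ± 3.01 to 18.0 ± 10.1 and 2810007J24Rik from 42.9 ± 18.2 to 38.8 ± 17.46 (SD, n = 3 sets each).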

How the results depend on the processing

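The 36 calls between the days became 22 (10 higher, 12 lower) with the set number as a replicate block, 0 in fits on the 6 sums compared or on cholangiocyte sums and by limma, 99 with 5 cells in each sum and 183 by DESeq2. Leaving out each set in turn gave 8 to 60. For same-numbered sets of the 2 days, deviations from the day's mean had correlations of 0.023 and 0.0064. With so few sets and cells, these values cannot tell whether the numbers pair the sets. The 4 genes that differed from DLK+ cells became 7 without a filter on low counts, 58 by DESeq2 and 2 to 10 with a set left out; the block left 4. The 75 between E17.5 and E15.5 became 1 on cholangiocyte sums and 179 by DESeq2. The 4 called sterol genes became 2 with the block, 0 in the 2 restricted fits and by limma, 1 without the culture-protocol cell, 7 by DESeq2 and 1 to 5 with a set left out. The sterol median stayed between -0.67 and -0.40 and the mitosis median between -1.96 and -0.80, within the SD of the list's level between sets. No value reversed. Ctu1, Tuba8, Msmo1 and 2810007J24Rik kept their call in 12 of 15 alternatives, all but the 3 fits with 0 calls. These alternatives share cells, and the E15.5 reads of 2810007J24Rik came from 3 of 36 cells, so kept calls are no independent support. The fit on cholangiocyte sums for E17.5 and the recounts of list members were added after seeing the data. In 8 cases a called gene was not tested in the 6-sum fit. Few cells per set at E14.5 limit the precision of genes read in few cells.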
